A study of Mus musculus with 12 samples.

Results

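The cadherins, claudins, junction proteins and integrins of the mouse corneal endothelium were taken as the protein-coding genes whose symbols match a fixed pattern of family names, and they were 70 of the 15838 genes with a value. They comprised 23 integrin genes, 22 genes of adherens junctions and desmosomes, 16 of tight junctions, 6 connexins of gap junctions and 3 of the CADM family. The integrin group takes in the integrin binding proteins Itgb1bp1, Itgb1bp2 and Itgb3bp, which share the family's name and are not receptors. The same pattern matched 122 protein-coding genes of the GENCODE M21 annotation, of which 51 had no row in the tables, among them Ocln, Cldn1, Cldn5 and Cdh6. For Cldn20 the tables hold only a row typed as a processed pseudogene, which was not counted.

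RNA was sequenced from Descemet membrane carrying corneal endothelial cells (CEC) of Slc4a11-/- (KO) and Slc4a11+/+ (WT) C57BL/6 mice, the KO carrying a targeted deletion within Slc4a11, in a design that asks whether loss of this transporter acts differently in males and females. There were 4 groups of 3 libraries each, namely WT males, KO males, WT females and KO females, all from mice aged 10 weeks and bred as littermates from heterozygous parents. The deletion is not limited to a cell type, and the model stands for congenital hereditary endothelial dystrophy, in which the cornea swells. The deposited tables hold fitted effects and no value for any single library, so the depth of the libraries is unknown here, and levels below are estimates for a group, in CPM, the reads of a gene scaled to a fixed library total, with no error.

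The corneal endothelium is a single layer of cells on Descemet membrane that keeps the stroma dry by pumping fluid out against a barrier that leaks. Tight junctions, built from claudins, JAM proteins and the scaffolds of the ZO family, set the leak between neighbouring cells. Adherens junctions join cells through cadherins and catenins, gap junctions join their cytoplasm through connexins, and integrins hold the basal side on the membrane. CEC are known for using N-cadherin, encoded by Cdh2, where most epithelia use E-cadherin, encoded by Cdh1.

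Among the genes that changed in the KO, 4 promoters are shown because their genes carry the results in 4 of the 5 groups and in the comparison of the sexes. F11r rose in both sexes, Cdh26 differed between the sexes, Gja1 rose in males and in the mean of both sexes, and Cadm2 fell in that mean. Each sequence runs 5′ to 3′ over 300 bases, from 250 before to 50 after a RefSeq start site on GRCm38.p6, with capitals for the letters CACGTG (the clock E-box), CACCTG or CAGGTG (the E-box read by Snail and Zeb factors) and TGACTCA or TGAGTCA (the AP-1 site), each searched on both strands, and no 2 matches shown overlap.
F11r, chr1:171437311-171437610, plus strand: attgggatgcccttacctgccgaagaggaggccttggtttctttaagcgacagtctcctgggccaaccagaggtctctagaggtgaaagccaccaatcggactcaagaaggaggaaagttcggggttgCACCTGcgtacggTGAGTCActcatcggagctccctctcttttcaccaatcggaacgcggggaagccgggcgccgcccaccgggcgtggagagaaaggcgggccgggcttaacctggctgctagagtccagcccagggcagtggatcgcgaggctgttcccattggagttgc
Cdh26, chr2:178430265-178430564, plus strand: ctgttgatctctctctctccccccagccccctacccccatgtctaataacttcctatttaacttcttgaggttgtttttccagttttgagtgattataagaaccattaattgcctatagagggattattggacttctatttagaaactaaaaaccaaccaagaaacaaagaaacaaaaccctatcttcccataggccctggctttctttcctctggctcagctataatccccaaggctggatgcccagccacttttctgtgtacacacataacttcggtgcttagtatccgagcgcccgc
Gja1, chr10:56377050-56377349, plus strand: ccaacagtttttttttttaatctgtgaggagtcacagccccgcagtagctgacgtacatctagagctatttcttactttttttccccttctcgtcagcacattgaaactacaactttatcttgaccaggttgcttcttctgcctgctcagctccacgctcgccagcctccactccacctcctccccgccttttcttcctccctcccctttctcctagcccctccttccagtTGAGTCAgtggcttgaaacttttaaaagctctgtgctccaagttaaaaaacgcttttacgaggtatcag
Cadm2, chr16:67620859-67621158, minus strand: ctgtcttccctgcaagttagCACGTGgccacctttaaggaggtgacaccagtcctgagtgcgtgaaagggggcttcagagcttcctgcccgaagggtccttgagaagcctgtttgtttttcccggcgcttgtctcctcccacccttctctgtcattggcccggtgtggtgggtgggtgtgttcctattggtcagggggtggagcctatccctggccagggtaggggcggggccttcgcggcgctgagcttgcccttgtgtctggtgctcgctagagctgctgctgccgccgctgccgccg
The promoter of F11r held CACCTG at position -122 and TGAGTCA at position -109, counted in bases from the start site. In Gja1 the AP-1 letters stood at position -19, and in Cadm2 the clock E-box stood at position -230. None of these letters were in the window of Cdh26, which also had the lowest GC content of the 4 sequences, 44% against 47.7% in Gja1, 60.3% in F11r and 62.7% in Cadm2. Across the 53 promoters that RefSeq gives for 46 of the 70 genes, the clock E-box was in 4 (7.55%, against 7.15% of all 32851 promoters), the Snail and Zeb E-box in 15 (28.3%, against 20.2%) and the AP-1 site in 5 (9.43%, against 5.20%). The members' promoters were also richer in GC, with a median of 60.7% against 52.7% for all promoters, and in CpG, with a median of 15 against 7 per promoter. A match of letters is a description of the sequence and not of binding.

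Slc4a11 itself was lower in the KO of both sexes, where reads from exons outside the deletion can still be counted. Its estimated level went from 3076 CPM in WT males to 865 CPM in KO males and from 4681 CPM in WT females to 633 CPM in KO females, with a log2 fold change (log2FC) of -1.83 ± 0.22 (SE) in males and -2.89 ± 0.22 in females. All 11 markers of corneal endothelium had a value, and of these Slc4a11 alone passed the test for the mean of both sexes. Of markers of other cell types, 6 of 7 keratocyte markers with a value were lower in that mean, 3 of 6 of iris and ciliary pigment cells and 2 of 7 of vascular endothelium, while 0 of 10 corneal epithelial and 0 of 8 leukocyte markers passed, with 1 of each at an unadjusted p under 0.05 by limma. None of 3 muscle, 4 nerve and 5 lens markers passed either, with 1 nerve marker at an unadjusted p under 0.05 by limma. In bulk RNA of this kind, fewer cells of a type and less RNA per cell cannot be told apart, and this holds for every difference below. The membranes are described as pooled in the sample records and as pairs from 1 mouse in the study's methods, so the spread between libraries may not be that between mice, and the p-values then measure only the spread between these libraries.

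The levels of the 70 genes ran from 0.360 to 1193 CPM with a median of 12.9 CPM, 38 genes stood at 10 CPM or more, and 9 stood under 1 CPM. Per kilobase of exon, Cldn10, a claudin whose pores pass ions between cells, was the highest at 389 CPM per kb. Next came Tjp1, encoding the scaffold ZO-1, at 153 CPM per kb, Itgb1, the shared beta subunit of many matrix receptors, at 146 CPM per kb, Cgnl1, encoding the tight junction plaque protein paracingulin, at 99.0 CPM per kb, and Cdh2 at 70.3 CPM per kb. Ctnna1, encoding the alpha-catenin that ties cadherins to actin, stood at 65.0 CPM per kb, and Gja1, encoding the most widespread connexin, at 52.7 CPM per kb. Cdh2 was far above the cadherins of other cell types per kb, with Cdh1 at 0.217 and the vascular cadherin Cdh5 at 0.389 CPM per kb. The samples thus held N-cadherin RNA at a high level and that of E-cadherin and vascular cadherin near the bottom of the range. Which cells the Cdh2 reads came from is not shown by bulk RNA. In WT males the 7 keratocyte markers with a value summed to 16261 CPM, beside 21879 CPM for the 11 of corneal endothelium.

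In males, KO minus WT passed the threshold, an adjusted p under 0.05 (limma, Benjamini-Hochberg over all genes), for 9 of the 70 (12.9%), where 5.47% of all genes passed. Cdh26, Cdh4, F11r, Gja1 and Itga3 were higher, which is 5 genes where 2.30% of all genes were higher, and Cdh11, Cdh23, Gja4 and Itga7 were lower, which is 4 genes where 3.17% of all genes were lower. Of these, Cdh23, Cdh4 and Gja4 also changed by more than 1 on the log2 scale, as 1.91% of all genes did. In females, 2 of the 70 genes passed, where 1.42% of all genes did. F11r was the 1 gene higher, beside 0.474% of all genes, and Cdh11 the 1 gene lower, beside 0.947%, and Cdh11 was the 1 gene past a log2FC of 1 in size, beside 0.587%.

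For the mean effect of both sexes, whose standard errors are smaller than those in either sex and which uses the same libraries, 17 of the 70 genes (24.3%) passed, where 9.07% of all genes passed. F11r, Cdh4, Cdh26, Ctnnal1 and Gja1 were the 5 that rose (3.87% of all genes rose), and 12 fell (5.20% of all genes fell). For Cdh26 the mean joins unlike effects, a log2FC of 0.80 in males and -0.15 in females. The 12 that fell were Cdh11, Cdh13, Cdh23 and Dsp of the adherens and desmosome group, Gja4 and Gjc1 of the connexins, Itga6, Itga9, Itga11, Itgav and Itgb5 of the integrins, and Cadm2. Of the 17, 7 moved by more than 1 on the log2 scale, as 2.25% of all genes did, and all of these 7 fell. The remaining 53 genes did not pass, and among them were Tjp1, Cldn10, Cgnl1, Cdh2 and Itgb1, the 5 highest per kb.

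**Figure D1:**
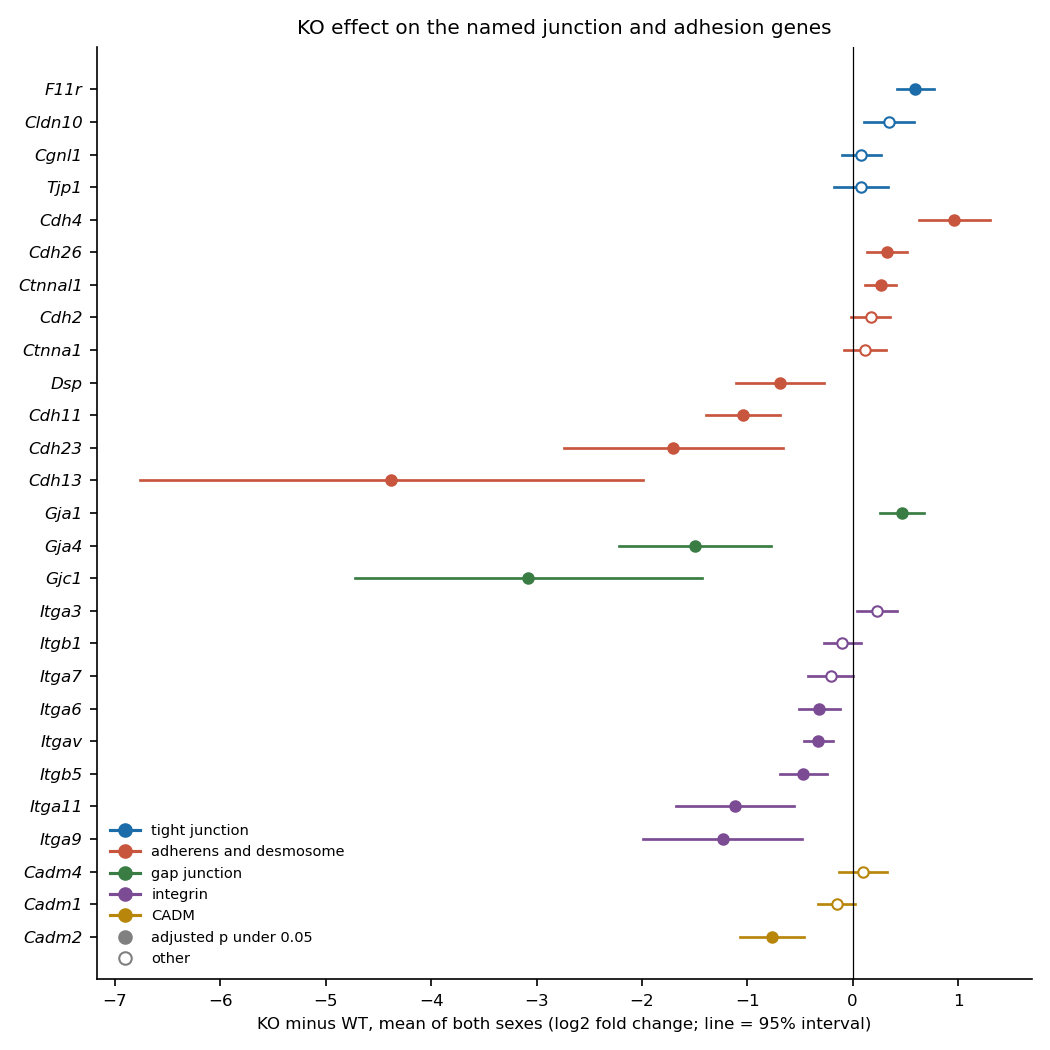
KO minus WT as the mean log2FC of both sexes on the horizontal axis for 27 named genes, with each line spanning the 95% interval, colours for the 5 groups and filled points for an adjusted p under 0.05. F11r, Cdh4, Cdh26, Ctnnal1 and Gja1 lie to the right of 0, all filled integrins lie to the left, and the intervals of Cdh13 and Gjc1 are the widest.

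Level and precision went together in this set. For the 38 genes at 10 CPM or more the median standard error of the mean effect was 0.095 on the log2 scale, against 0.40 for the 32 genes under 10 CPM. The median log2FC of the mean effect was -0.01 in the former and -0.46 in the latter, beside 0.07 and -0.23 for all genes in the same ranges of level. Of the 38 well measured genes, 11 (28.9%) passed the test, beside 11.5% of all genes at 10 CPM or more. Cdh13 and Gjc1, both under 1 CPM, had the most negative values of the set.

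**Figure D2:**
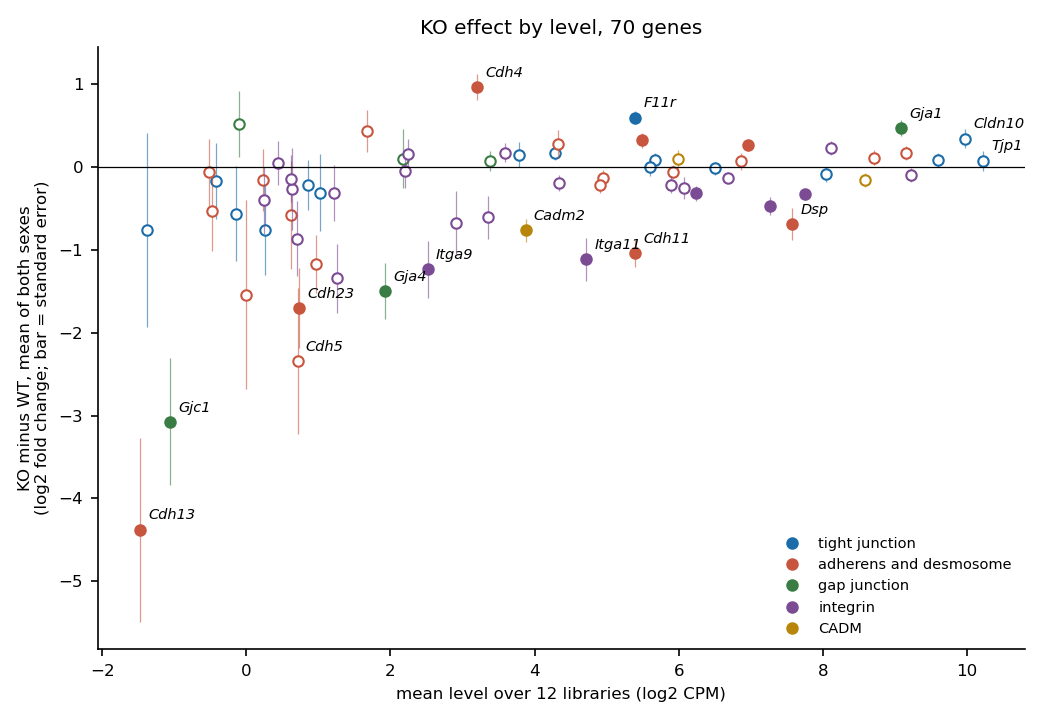
Mean level over the 12 libraries in log2 CPM on the horizontal axis against KO minus WT as the mean log2FC of both sexes on the vertical axis for the 70 genes, with bars of 1 standard error, colours for the 5 groups and filled points for an adjusted p under 0.05. The bars are shorter toward high levels, and the points spread downward at low levels, to -4.38 for Cdh13.

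Of the 16 barrier genes of the tight junction, F11r was the 1 that passed for the mean effect. F11r (ENSMUSG00000038235, chromosome 1, 171437535 to 171464603, plus strand) encodes JAM-A, an immunoglobulin-type protein of tight junctions that organises cell polarity. Its estimated level was 33.8 CPM in WT males, 51.6 CPM in KO males, 34.7 CPM in WT females and 52.0 CPM in KO females. Both KO groups were thus above both WT groups by a like amount. The log2FC was 0.61 ± 0.11 (SE, adjusted p = 0.00845, limma) in males and 0.58 ± 0.11 (adjusted p = 0.0205) in females, a mean fold of 1.51 (adjusted p = 0.00072). The difference between the sexes was -0.02, with a 95% interval from -0.37 to 0.32.

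The other JAM genes, Jam2 at 264 CPM and Jam3 at 19.5 CPM, had mean log2FC of -0.09 and 0.17 and did not pass. Cldn10 had estimated levels of 877 and 913 CPM in male and female WT and 1145 and 1129 CPM in male and female KO. Its mean log2FC was 0.35 with a 95% interval from 0.10 to 0.59, and its adjusted p of 0.0688 (limma) missed the threshold. For the scaffold Tjp1 the levels were 1173 CPM in WT males, 1386 CPM in KO males, 1150 CPM in WT females and 1082 CPM in KO females, so the estimates moved up in males and down in females. The 95% interval of its mean log2FC of 0.08 ran from -0.18 to 0.33. Cgnl1 had the same mean log2FC of 0.08, with an interval from -0.10 to 0.26. The scaffold gene Tjp3 had a mean log2FC of 0.15, and Cgn, encoding cingulin, had 0.09. Of the 8 claudins, Cldn10 and Cldn12 exceeded 10 CPM, while Cldn3, Cldn4, Cldn7, Cldn15, Cldn23 and Cldn34c1 lay between 0.385 and 2.03 CPM, with standard errors of the mean effect from 0.30 to 1.17 that could not show a change of the size seen in F11r. None of the 8 claudins passed for the mean effect, and 1 of them did at an unadjusted p under 0.05 by limma. Cldn12, at 48.6 CPM, had a mean near 0 because its estimates were opposite, -0.37 ± 0.16 (SE) in males and 0.38 ± 0.16 in females. The difference between the sexes was 0.75, with a 95% interval from 0.27 to 1.23, and did not pass (adjusted p = 0.182, limma).

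The adherens and desmosome group held changes in both directions, with 3 genes up and 4 down of 22 for the mean effect. Of the 3, Cdh26 had a log2FC above 0 in males only. The core of the adherens junction in CEC did not pass. Cdh2 had estimated levels of 536 CPM in WT males, 613 CPM in KO males, 533 CPM in WT females and 591 CPM in KO females, and a mean log2FC of 0.17 with a 95% interval from -0.01 to 0.35. Ctnna1 had 0.11, with an interval from -0.08 to 0.31. Ctnnd1 and Jup, which encode the catenins p120 and plakoglobin, had -0.13 and 0.07. Ctnnal1, encoding alpha-catulin, a relative of alpha-catenin, rose by a small amount, 0.27 ± 0.07 (adjusted p = 0.0297, limma), in males from 107 to 136 CPM and in females from 121 to 138 CPM.

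Cdh4 (ENSMUSG00000000305, chromosome 2, 179442431 to 179899373), encoding R-cadherin, a close relative of N-cadherin, rose the most among the genes that passed upward. Its estimated level was 5.28 CPM in WT males, 12.6 CPM in KO males, 8.20 CPM in WT females and 13.1 CPM in KO females. Both KO estimates lay above both WT estimates. The sex coefficient, female minus male, which comes from a separate fit, was 0.35 ± 0.30 (SE) and did not pass (adjusted p = 0.882, limma). The log2FC was 1.25 ± 0.22 (adjusted p = 0.00756, limma) in males, 0.68 ± 0.21 (adjusted p = 0.132) in females and 0.97 ± 0.15 (adjusted p = 0.00244) for the mean. The difference between the sexes was -0.57 (adjusted p = 0.592), with a 95% interval from -1.24 to 0.09.

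Cdh11 (ENSMUSG00000031673, chromosome 8, 102632095 to 102785642), encoding OB-cadherin, a cadherin of mesenchymal cells, fell in both sexes. Its estimated level was 60.2 CPM in WT males, 32.1 CPM in KO males, 60.0 CPM in WT females and 26.6 CPM in KO females, so both WT groups were at one level and both KO groups near one lower level. The log2FC was -0.91 ± 0.23 (adjusted p = 0.0352, limma) in males and -1.17 ± 0.24 (adjusted p = 0.0251) in females, a mean of -1.04 ± 0.16 (adjusted p = 0.00215) that leaves 0.486 of the WT level. Markers of stromal keratocytes moved the same way. All 7 with a value were below 0 in the mean effect, Kera, Lum, Dcn, Col1a1, Col1a2 and Ptgds passed the test, Thy1 had no row, and the summed level changed in males from 16261 to 11534 CPM and in females from 16486 to 9016 CPM. Their part in the result for Cdh11 was not tested.

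Dsp, encoding desmoplakin, which ties desmosomes to keratin, fell by 0.69 on the log2 scale in the mean of both sexes (SE 0.19, adjusted p = 0.042, limma), in males from 268 to 181 CPM and in females from 219 to 125 CPM. The 10 markers of corneal epithelium had summed levels of 226 CPM in WT males, 124 CPM in KO males, 107 CPM in WT females and 48.0 CPM in KO females. Of these markers 9 were below 0 in the mean effect, beside 51.9% of all genes and 70.7% of those under 10 CPM. The part of these markers in the result for Dsp was not tested. Cdh1, one of the 10, had a mean log2FC of -1.54 with a standard error of 1.14. Cdh23, best known from the tip links of hair cells, and Cdh13, encoding T-cadherin, which is anchored by lipid and abundant on vascular cells, also fell, with mean log2FC of -1.70 (SE 0.48, adjusted p = 0.0432) and -4.38 (SE 1.11, adjusted p = 0.0282, limma). Their mean levels were 1.66 and 0.360 CPM, and the estimated level of Cdh13 was under 0.1 CPM in both KO groups, where the fold depends on the offset added before the logarithm.

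Nectin1, Nectin2 and Nectin3, which start cell contacts beside cadherins, had mean log2FC of 0.28, -0.05 and -0.22, and the rarer Nectin4 had -0.58 ± 0.65 (SE). None of the 4 passed, and 1 of them, Nectin3, had a 95% interval that left out 0, from -0.41 to -0.02. The cadherins Cdh3, Cdh5, Cdh9, Cdh15 and Cdh24 lay between 0.700 and 3.19 CPM and did not pass either. Among them, Cdh3 had a mean log2FC of -1.17 with a 95% interval from -1.92 to -0.42 (adjusted p = 0.0524, limma). Cdh5 had -2.34, with an interval from -4.23 to -0.46, and the intervals of the others included 0.

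Of the 6 connexins, 1 rose and 2 fell in the mean effect. Gja1 (ENSMUSG00000050953, chromosome 10, 56377330 to 56402513), the connexin of CEC and of many other tissues, was at 392 CPM in WT males, 660 CPM in KO males, 540 CPM in WT females and 613 CPM in KO females. Its log2FC was 0.75 ± 0.14 (adjusted p = 0.00784, limma) in males, a fold of 1.68, and 0.18 ± 0.14 (adjusted p = 0.532) in females. The difference between the sexes, -0.57 ± 0.19, did not pass (adjusted p = 0.262, limma). The mean of both sexes was 0.47 ± 0.10 (adjusted p = 0.0118).

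Gja4 and Gjc1, connexins known from blood vessels, fell in the mean effect. For Gja4 the levels were 9.82 CPM in WT males, 2.16 CPM in KO males, 4.13 CPM in WT females and 2.36 CPM in KO females, with a log2FC of -2.18 ± 0.47 (adjusted p = 0.0172, limma) in males and -0.81 ± 0.49 (adjusted p = 0.439) in females. Gjc1 was near the bottom of the range at 0.478 CPM, with a mean log2FC of -3.08 ± 0.77 (adjusted p = 0.0266). All 7 vascular endothelial markers with a value, Cdh5 among them, were below 0 in the mean effect. All but Kdr lay under 10 CPM, where 70.7% of all genes were below 0. Kdr and Emcn passed the test, and Cldn5 had no row. The summed level of the 7 changed in males from 112.0 to 91.6 CPM and in females from 112.2 to 57.3 CPM. Most of this sum was Kdr, at 89.2 CPM in WT males, 88.7 CPM in KO males, 106 CPM in WT females and 54.5 CPM in KO females. The 6 other markers, summed apart after their values were seen, stood at 22.8 CPM in WT males, 2.92 CPM in KO males, 6.68 CPM in WT females and 2.83 CPM in KO females. The part of vascular cells in the results for Gja4, Gjc1 and Cdh13 was not tested.

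In the mean effect 19 of 23 integrins (82.6%) were below 0, beside 51.9% of all genes. Of the 12 integrins at 10 CPM or more 10 (83.3%) were below 0, beside 36.9% of all genes at that level, and among the 11 lower ones 9 were, where 70.7% of all genes under 10 CPM were. None rose past the threshold and 5 fell, and the median log2FC was -0.26, beside -0.01 for all genes and -0.15 for all 70. Without the 3 binding proteins, 18 of 20 were below 0 and the median was -0.29. Itgav and Itgb5, whose products pair as a vitronectin receptor, fell together. Itgav was at 236 CPM in WT males, 191 CPM in KO males, 249 CPM in WT females and 195 CPM in KO females, with a mean log2FC of -0.33 ± 0.06 (adjusted p = 0.00913, limma). Itgb5 was at 174 CPM in WT males, 139 CPM in KO males, 187 CPM in WT females and 123 CPM in KO females, with a mean log2FC of -0.47 ± 0.10 (adjusted p = 0.0159, limma). For both genes the 2 KO groups stood below the 2 WT groups. The other beta partners of Itgav with a value, Itgb1, Itgb3 and Itgb8, had mean log2FC of -0.10, -0.31 and -0.25 and did not pass.

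Among laminin receptors, which face the basement membrane, Itga6 fell by 0.32 on the log2 scale in the mean effect (SE 0.09, adjusted p = 0.0427, limma). Its level was 87.2 CPM in WT males, 66.5 CPM in KO males, 81.3 CPM in WT females and 68.8 CPM in KO females. Itga3 and Itga7, also laminin receptors, changed in males in opposite directions. Itga3 went from 239 to 328 CPM in males (log2FC 0.46 ± 0.12, adjusted p = 0.0481, limma) and was at 275 CPM in WT females and 277 CPM in KO females. Itga7 went from 69.8 to 46.3 CPM in males (log2FC -0.59 ± 0.14, adjusted p = 0.0291, limma) and was at 58.7 CPM in WT females and 66.1 CPM in KO females. Neither difference between the sexes passed, at -0.45 (adjusted p = 0.367) for Itga3 and 0.76 (adjusted p = 0.122, limma) for Itga7. Itgb4, which pairs with Itga6 in hemidesmosomes, had a mean log2FC of -0.67 ± 0.38 (SE) at 7.51 CPM and did not pass.

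Of the collagen receptors, Itga11, known from fibroblasts, fell by 1.11 (SE 0.26, adjusted p = 0.0206, limma), with 40.5 CPM in WT males, 19.4 CPM in KO males, 36.9 CPM in WT females and 16.5 CPM in KO females. The keratocyte markers with the summed levels given above moved with it, and their part was not tested. Itga1 had a mean log2FC of -0.13 at 103 CPM, and Itga2 and Itga10 lay near 1 CPM with 0.05 and -0.40, and these 3 did not pass. Itga9, a receptor for tenascin and other ligands, fell by 1.24 (SE 0.35, adjusted p = 0.043, limma) at a mean level of 5.73 CPM. Itgb1, the beta subunit shared by most of these receptors, was at 606 CPM in WT males, 515 CPM in KO males, 626 CPM in WT females and 644 CPM in KO females, and the 95% interval of its mean log2FC of -0.10 ran from -0.27 to 0.08. Itgb2 and Itgb7, receptors of leukocytes, were at 1.55 and 1.53 CPM.

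The CADM proteins are immunoglobulin-type molecules that bind one another across cell contacts. Cadm1, at 386 CPM the highest of the 3, had a mean log2FC of -0.15, with a 95% interval from -0.33 to 0.03, and levels of 409 and 405 CPM in male and female WT against 378 and 354 CPM in male and female KO. Cadm2 fell by 0.76 (SE 0.14, adjusted p = 0.00663, limma), in males from 18.5 to 11.3 CPM and in females from 19.7 to 11.2 CPM. Cadm4 had 0.10 at 63.5 CPM and did not pass.

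**Figure D3:**
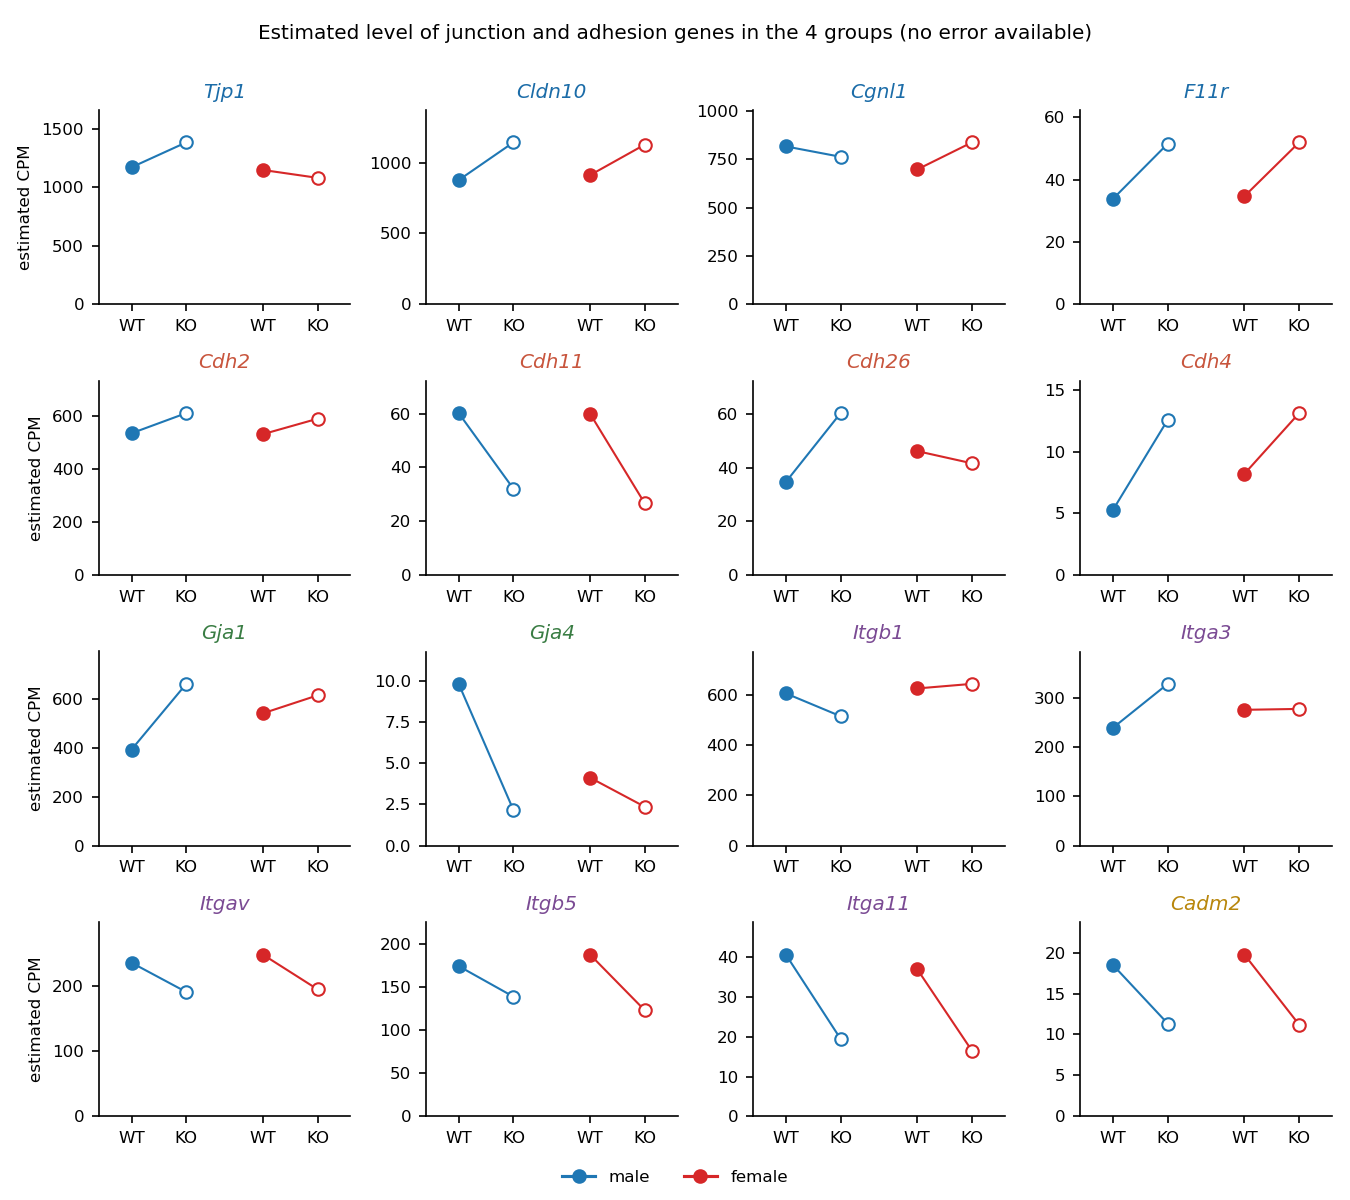
Estimated level in CPM, from 0, of 16 genes in male WT and male KO (blue) and female WT and female KO (red), with filled points for WT and open points for KO, and no error because the tables hold no value per library. Both KO points of F11r, Cdh4, Cldn10, Cdh2, Gja1 and Itga3 lie above both WT points, although the female points of Itga3 nearly coincide. Those of Cdh11, Itgav, Itgb5, Itga11, Gja4 and Cadm2 lie below, and Cdh26 rises in males.

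Set side by side for the mean effect, the barrier genes of the tight junction had 1 of 16 called (6.25%) and a median log2FC of -0.01, the adherens and desmosome genes 7 of 22 (31.8%) and -0.14, the connexins 3 of 6 (50.0%) and 0.09, and the matrix adhesion genes of the integrin group 5 of 23 (21.7%) and -0.26, beside 9.07% and -0.01 for all genes. Among members at 10 CPM or more the medians were 0.09 for 10 tight junction genes, 0.07 for 11 adherens and desmosome genes and -0.23 for 12 integrins, beside 0.07 for all genes at that level. The median of the integrin group thus stood below that of all genes with and without its low genes, while that of the adherens group turned with them. Whether the groups differ from each other was not tested.

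In the comparison of the KO effect between females and males, Cdh26 was the 1 gene of 70 that passed, where 0.543% of all genes passed. Cdh26 (ENSMUSG00000039155, chromosome 2, 178430531 to 178487366) encodes a cadherin known from epithelia. Its estimated level was 34.8 CPM in WT males, 60.5 CPM in KO males, 46.3 CPM in WT females and 41.7 CPM in KO females. The male KO was the highest group and the male WT the lowest, with both female groups between them. The log2FC was 0.80 ± 0.13 (adjusted p = 0.00343, limma) in males and -0.15 ± 0.13 (adjusted p = 0.601) in females, and the difference between them was -0.95 ± 0.18 (adjusted p = 0.0336), with a 95% interval from -1.34 to -0.56. A further 9 members had an unadjusted p under 0.05 for this difference, which makes 10 of 70 (14.3%) beside 10.2% of all genes.

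**Figure D4:**
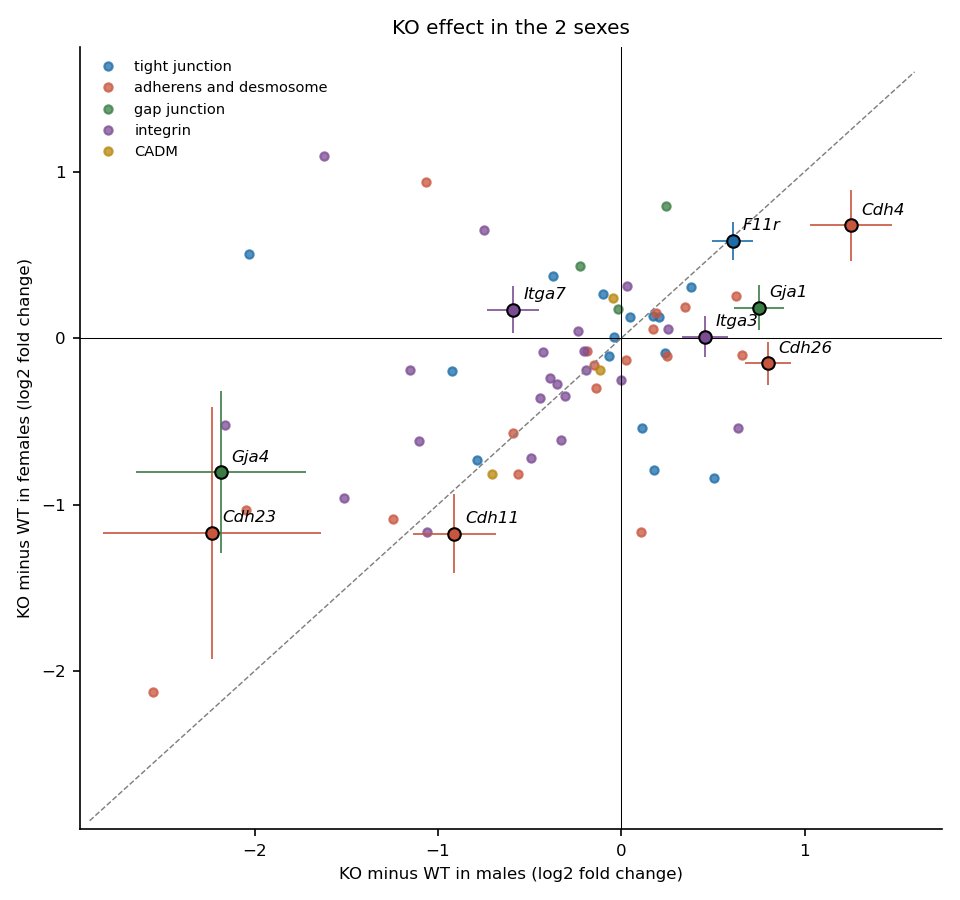
KO minus WT in males on the horizontal axis and in females on the vertical axis, both as log2FC, for 68 of the 70 genes in colours for the 5 groups, with bars of 1 standard error on the named genes that passed in a single sex or in the difference between the sexes. F11r and Cdh11 lie near the dashed line of equal effects and Cdh26, Gja1 and Itga3 lie to the right of it, while Cdh13 (-5.19, -3.57) and Gjc1 (-2.79, -3.36) fall outside the axes.

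The sign of the effect was the same in males and females for 48 of the 70 genes (68.6%), beside 67.4% of all genes. By group it was the same for 18 of 23 integrins, 16 of 22 adherens and desmosome genes, 4 of 6 connexins and 8 of 16 tight junction genes. For the sexes themselves, female minus male, 0 of the 70 genes passed by limma, where 0.0316% of all genes passed. At an unadjusted p under 0.05 by limma there was 1 of the 70 (1.43%), beside 3.74% of all genes. This coefficient comes from a separate fit. Its standard error exceeded that of the mean KO effect in F11r (0.175 against 0.080), Cdh11 (0.31 against 0.16) and Slc4a11 (0.65 against 0.155). In Jam2 the 2 were alike (0.091 against 0.089). Whether that fit held genotype is not stated, so a sex difference in genes that the KO changed could be missed.

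Partner genes outside the family names were read from fixed lists. The counts of each list are to be read beside the 9.07% of all genes that passed for the mean effect. Of 17 tight junction partners with a value, 2 rose and 2 fell, which is 23.5%. Marveld3, a relative of occludin, rose by 1.17 (SE 0.30) and Patj, a polarity scaffold, by 0.30 (SE 0.08) on the log2 scale. Clmp, an adhesion molecule of the junction, fell by 0.91 (SE 0.13, adjusted p = 0.0013, limma), and Ildr2, of the angulin family at tricellular contacts, fell by 3.01 (SE 0.80) at a mean level under 1 CPM. Of 11 adherens partners 3 (27.3%) passed, of which 1 rose, the LIM protein gene Ajuba by 0.28 (SE 0.08), and 2 fell. Among the latter, the receptor phosphatase gene Ptpru fell by 2.27 (SE 0.35, adjusted p = 0.00193, limma). Of 20 integrin adhesion partners 2 fell, a share of 10.0% that is close to that of all genes. The tetraspanin gene Cd9 fell by 1.02 (SE 0.13, adjusted p = 0.000595, limma), and the tensin gene Tns2 fell by 0.22 (SE 0.06). None of 11 desmosome genes passed by limma, with 0 at an unadjusted p under 0.05. All 11 were below 0, beside 51.9% of all genes and 70.7% of those under 10 CPM. The median log2FC of the desmosome genes was -0.33, against 0.16 for the tight junction partners, -0.03 for the adherens partners and 0.04 for the integrin partners. Neither of the 2 gap junction relatives with a value passed, and both had an unadjusted p under 0.05.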

How the data were processed

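Membranes with CEC from 12 mice or pools gave 12 libraries, 3 per group, made with a low-input stranded total RNA kit and sequenced as paired-end reads. Per the paper and labels, the authors aligned reads to GRCm38/mm10 with Hisat2, computed TMM-normalised CPM and fitted limma-voom to genotype, sex and their interaction. Versions, counter and annotation release are not given in the sources used here. The authors deposited 3 tables of 15838 genes, which hold their log2 fold change, mean log2 CPM, moderated t and B as a score each, and p-values with their Benjamini-Hochberg adjustment. These columns are the authors' own comparisons and were used because the tables hold nothing else. No total of counts is known, so precision rests on the standard error (log2FC divided by t).

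The coefficient for genotype was taken to be the KO effect of males, because the ratio of interaction to genotype standard errors was 1.42 at the median of all genes, 8.04 to 8.29 in 4 Y-linked genes and 1.04 in Xist. The female effect is genotype plus interaction, with the difference of their squared standard errors as its variance, and the mean effect averages both sexes. P-values came from the moderated t with 13.8 degrees of freedom and were adjusted (Benjamini-Hochberg) over all genes. The sex table comes from another fit (14.6 degrees of freedom), so group levels, built from mean level and all 3 coefficients, mix 2 fits. Whether the fit of sex held genotype is not stated in the sources used here. The derivation of the female effect was tested on simulated fits with males as the reference. Such a test cannot show how the authors' coefficients were coded or whether the group levels are right. A gene was called at an adjusted p under 0.05. Named genes were those called in any contrast, the 3 highest per kb in each group, and Cdh2, Tjp1, Gja1, Cdh26, Cadm1 and Slc4a11; other genes stand as group members, and a few genes are not reported here by name. Members, groups and lists were chosen with earlier results of these data known. Positions and exon lengths are from GENCODE M21, promoters from RefSeq (GRCm38.p6). Other adjustments, level filters, a fold threshold and standard errors were tried. Python 3.11.15, scipy 1.17.1 and pandas 2.3.3 were used.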

Additional observations from a re-analysis of the deposited data

Results flagged for a closer look

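Cdh26 was singled out because its KO effect differed between the sexes in a direct test, by -0.95 on the log2 scale (female minus male effect, SE 0.18, adjusted p = 0.0336, limma with Benjamini-Hochberg adjustment). It was higher in the KO of males and had a log2FC of -0.15 in females. No library values exist in the tables, so how many of the 3 libraries per group show each direction is not known.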

How the results depend on the processing

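No paired analysis was possible because the tables hold no value per library and the labels give no numbers shared between groups. Leaving out each replicate in turn was not run for the same reason, so whether 1 library decides a call cannot be seen. In males the 9 calls became 1 by Benjamini-Yekutieli adjustment (Cdh26), 0 by Holm, 3 with a log2FC over 1 and 5 with 1 adjustment over the 3 tables. In females the 2 calls became 0 by either stricter adjustment, 1 with the fold threshold and 4 both at 10 CPM or more and with the male standard errors, Cadm2 and Itgb5 joining F11r and Cdh11. For the mean effect the 17 calls became 3 by Benjamini-Yekutieli adjustment (Cdh11, Cdh4, F11r), 0 by Holm, 7 with the fold threshold and 11 at 10 CPM or more, where only 38 of the 70 genes remain. The 1 call of the difference between sexes became 0 by Benjamini-Yekutieli, by Holm and with the fold threshold, its log2FC being -0.95. At an unadjusted p under 0.05, limma gave 27, 15, 24 and 10 of the 70 for males, females, the mean and the difference, which is 38.6%, 21.4%, 34.3% and 14.3% beside 21.9%, 15.9%, 27.9% and 10.2% of all genes. The median of the adherens group moved to 0.17 in males and 0.070 in the mean effect at 10 CPM or more, and to 0.15 and 0.046 as a mean weighted by precision, that of the connexins in males from -0.12 to 0.37 at 10 CPM or more, with 2 genes left, and to 0.26 when weighted over all 6, and that of the tight junction genes in the mean effect to 0.13 when weighted. For single named genes, 25 calls were lost by Benjamini-Yekutieli adjustment and 4 gained at 10 CPM or more. These settings alter only the adjusted p of a gene and not its log2FC, so they cannot test its direction. Sequencing depth is unknown, and the genes under 1 CPM, with a median standard error of 0.58 for the mean effect, could not show changes of the size of the well measured ones.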

Other observations

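Cdh26 and Cdh4, both higher in the KO of males, lie 0.955 Mb apart on chromosome 2, which also carries Slc4a11. They are 47.7 and 48.7 Mb from Slc4a11. The chromosome also holds Ctnnd1, Itgav, Itga6, Itga4 and Itga8, whose mean log2FC were -0.13, -0.33, -0.32, -0.61 and -1.34, of which those of Itgav and Itga6 passed the test. This position was noticed after the values were seen.

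Leukocyte markers, beside which the integrins Itgb2 and Itgb7 may be read, had summed levels of 53.0 CPM in WT males, 29.6 CPM in KO males, 37.7 CPM in WT females and 71.8 CPM in KO females, and none of 8 passed for the mean effect by limma, with 1 at an unadjusted p under 0.05. Itgb2, one of these markers, had a log2FC of -1.62 ± 0.76 (SE) in males and 1.09 ± 0.62 in females, and the difference of 2.71 did not pass (adjusted p = 0.309, limma).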
